A study of Mus musculus with 3 samples.

Results

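The genes of MHC class I antigen presentation were followed in RAW264.7 macrophages, a mouse line from a tumour induced with Abelson leukaemia virus in BALB/c mice. They are 10 genes, chosen by their symbols among the 36870 gene names on the array: the heavy chains H2-K1 and H2-D1, the light chain B2m, the peptide transporter subunits Tap1 and Tap2, the loading chaperone Tapbp, the immunoproteasome subunits Psmb8, Psmb9 and Psmb10, and the transactivator Nlrc5. All 10 were on the array, by 17 probes. Cells of the first group received LPS alone, those of the second the Lactiplantibacillus plantarum strain LOC1 and then LPS, and those of the third the strain LOC3 and then LPS. All 3 groups thus carry LPS, an agonist of TLR4, and RNA was taken 3 h after it. The series design gives 12 h for the lactobacilli, and the methods of the study state a longer time for macrophages, so the exposure is not settled. Each group is 1 array of 1 RNA sample of 1 cell line, so no difference has a replicate check and no p-value can be given. The array of unchallenged macrophages was not analysed here, but the authors' ratios to it were.

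MHC class I molecules display short peptides from the cell's own proteins to CD8 T cells. The peptides are cut by the proteasome, in which the immunoproteasome subunits can replace the standard catalytic subunits, are pumped into the endoplasmic reticulum by the TAP transporter and are loaded with the help of tapasin onto a heavy chain paired with beta-2 microglobulin. Interferons raise the genes of this path in many cell types, and NLRC5 is a transactivator of class I promoters that acts through the factors bound at their X and Y boxes. In macrophages, LPS starts interferon production through TLR4, and class I molecules also carry peptides of material the cell has taken up.

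The promoters of the heavy chains and of B2m are shown because a heavy chain and the light chain are joined in each class I molecule and the promoters hold the letters of these boxes in the same spacing. The sequences are the 250 bases before the RefSeq start (GRCm38.p6), 5′ to 3′ on the strand of the gene, and capitals mark matches of 5 motifs searched on both strands: GAAA, any 2 bases and GAAA (ISRE), TTCNNNGAA (GAS), GGGNNTTCC (kB), TGACG (X2 box core) and CCAAT (Y box core, ATTGG on the other strand).
H2-K1, chr17:34000348-34000597, minus strand: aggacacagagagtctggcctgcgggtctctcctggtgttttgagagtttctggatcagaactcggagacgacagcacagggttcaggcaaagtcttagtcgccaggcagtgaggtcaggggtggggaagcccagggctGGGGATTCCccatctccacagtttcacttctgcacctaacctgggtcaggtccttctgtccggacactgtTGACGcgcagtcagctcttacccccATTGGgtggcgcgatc
H2-D1, chr17:35262844-35263093, plus strand: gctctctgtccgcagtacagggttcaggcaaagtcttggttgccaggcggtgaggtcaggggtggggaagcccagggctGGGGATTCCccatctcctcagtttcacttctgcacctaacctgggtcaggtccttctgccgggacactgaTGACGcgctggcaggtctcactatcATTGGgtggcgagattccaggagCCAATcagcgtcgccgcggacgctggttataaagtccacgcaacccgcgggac
B2m, chr2:122147437-122147686, plus strand: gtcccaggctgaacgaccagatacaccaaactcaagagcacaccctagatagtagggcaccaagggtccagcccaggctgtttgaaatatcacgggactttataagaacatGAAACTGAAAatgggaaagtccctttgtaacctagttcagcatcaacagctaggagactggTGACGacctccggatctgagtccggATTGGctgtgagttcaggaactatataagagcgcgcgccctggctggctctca
H2-K1 has a second RefSeq start with a largely overlapping window, not printed. H2-K1 and H2-D1 both hold GGGGATTCC followed by TGACG, and all 3 promoters hold TGACG, 20 bases and then ATTGG. This spaced pair was noticed after the sequences were seen. It lies in 31 of the 32851 promoter windows of RefSeq, 0.0944%, in windows of 250 bases before to 50 after the start, and of the 32 genes with a window whose symbols start as those of the H2 genes do, it was found in H2-D1, H2-K1 and H2-M3. The ISRE letters, GAAACTGAAA, start 139 bases before the start of B2m.

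Tap1 and Psmb9 are neighbours that are read in opposite directions, and the 225 bases between their RefSeq starts are shown, on the strand of Tap1, because both genes share them as promoter.
Psmb9 and Tap1, chr17:34187331-34187555, plus strand: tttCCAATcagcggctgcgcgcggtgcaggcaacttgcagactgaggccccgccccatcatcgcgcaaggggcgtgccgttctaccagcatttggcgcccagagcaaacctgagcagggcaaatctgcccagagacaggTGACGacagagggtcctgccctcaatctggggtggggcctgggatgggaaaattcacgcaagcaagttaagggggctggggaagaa
The CCAAT letters stand 222 bases and the TGACG letters 86 bases before the start of Tap1. Windows were matched for 8 of the 10 genes, all but Tap2 and Nlrc5. The ISRE letters were found in 1 of these 8 genes (B2m) and in 3.44% of all windows, the GAS letters in 1 (Psmb8, TTCCCAGAA) and 8.3%, the kB letters in 2 and 5.82%, the X2 letters in 5 and 20.8%, and the Y letters in 6 and 37.4%. The windows of Tap1 and Psmb9 overlap by 275 bases, so their X2 and Y matches are the same letters. A match describes letters only, and the reference is of the strain C57BL/6, which differs from BALB/c at the H2 genes. Only these exact patterns were searched, so a site with other letters is missed. The lack of a match, as for the ISRE in H2-K1 and H2-D1, does not show that a site is absent.

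Agilent 1-colour intensities, background-subtracted by the scanner software, were scaled for all comparisons to the 75th percentile of each array, 555 for LPS, 513 for LOC1 + LPS and 516 for LOC3 + LPS. Between 47.8% and 51.9% of the 56605 probes were well above background, and no spot was saturated. Of a gene with several probes the brightest gives its value, and differences are on the log2 scale, where 1 is 2-fold. The spread of spots of probes printed 10 times on an array gave a technical SD of a difference of 0.06 for bright probes in each comparison, and between 0.28 and 0.31 for dim ones. The bright value rests on 269 probes per array, the dim one on only 11 to 13. Neither holds variation between cultures. The 8 macrophage markers looked at, among them Adgre1, Cd68 and Lyz2, were all well above background on the 3 arrays, at a summed intensity from 474314 to 588557. Of 8 markers of other cell types, between 3 and 5 were above it, at a summed intensity from 573 to 593, with Cd3e above background and Krt18 at background on all 3 arrays.

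The 10 genes were bright on every array, between 9244 and 144645, above the 75th percentile, and 16 of the 17 probes were well above background on all 3 arrays. Of the genes, 7 lie on chromosome 17, Psmb10 and Nlrc5 on chromosome 8, and B2m on chromosome 2.

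**Figure D1:**
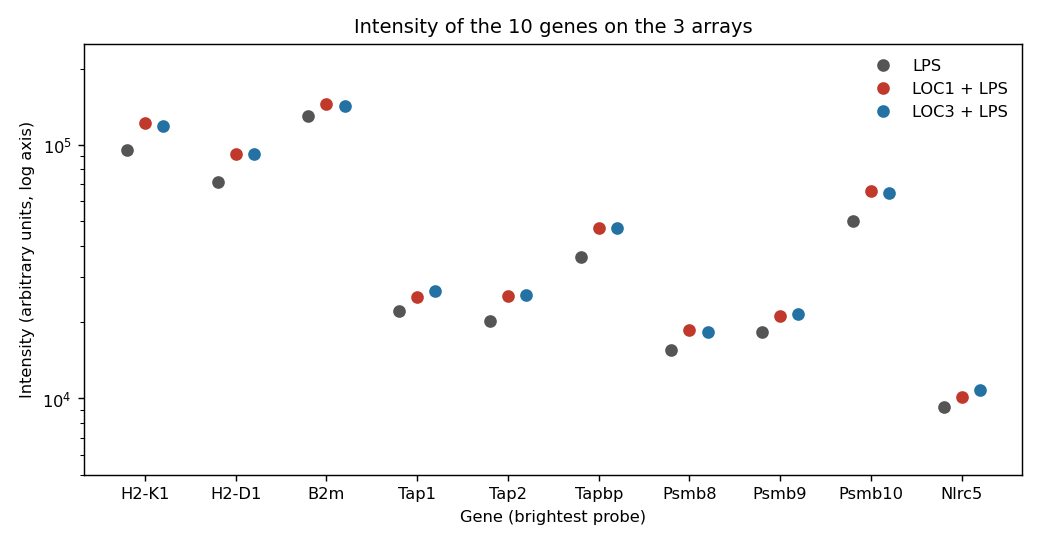
Intensity of the brightest probe of each gene on the 3 arrays (log axis, not scaled between arrays), 1 point per array. In each of the 10 genes the LPS array was the lowest, and the points of LOC1 + LPS and LOC3 + LPS lay close together.

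The first question was how the 10 genes stood after LPS against unchallenged cells. With LPS alone, 7 of the 10 brightest probes were listed as at least 2-fold higher in the authors' table and 0 as lower, where 11.1% of all genes well above background were listed higher and 7.19% lower. The listed log2 ratios ran from 1.10 in H2-K1 to 2.13 in Tapbp. With LOC1 + LPS 8 of 10 were listed higher, against 13% of all genes, at ratios from 1.25 to 2.66, and with LOC3 + LPS 8 of 10, against 14%, at ratios from 1.23 to 2.65. By any probe rather than the brightest, each of the 10 genes was listed higher in each group. That count rests on the other probe for Tap1 and Nlrc5 in every group and for B2m with LPS. The share of all genes by the any-probe rule was not computed. The 3 lists share the unchallenged array, so they are not independent. In bulk RNA, fewer cells expressing a gene and less RNA per cell cannot be told apart. A blank in the table means a ratio under 2-fold or a probe the authors left out.

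The heavy chains stood at a little over 2-fold after LPS and near 3-fold with the strains. H2-K1 was listed at 2.14-fold with LPS, 3.01-fold with LOC1 + LPS and 2.91-fold with LOC3 + LPS. H2-D1 was at 2.16-fold, 3.09-fold and 3.05-fold. B2m was blank with LPS, where the value rebuilt from its other columns was 1.93-fold, and was listed at 2.38-fold with LOC1 + LPS and 2.34-fold with LOC3 + LPS. By the brightest probe, the ratio was lowest with LPS alone in all 3 chains, in B2m by the rebuilt value. The other B2m probe had its highest ratio with LPS alone.

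Of the loading genes, Tapbp, the tapasin that bridges TAP and the heavy chain, had the highest listed ratios among the brightest probes, 4.37-fold with LPS, 6.30-fold with LOC1 + LPS and 6.28-fold with LOC3 + LPS. Tap2 was listed at 3.14-fold, 4.39-fold and 4.39-fold. The brightest Tap1 probe was listed in no group, but its other probe was at log2 ratios of 4.26, 4.48 and 4.46, which is 19.2-fold with LPS and 22.3-fold with LOC1 + LPS, the highest ratios among all 17 probes.

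The immunoproteasome subunits lay between 2-fold and 3-fold with LPS and above 3-fold with both strains. Psmb8 was listed at 2.50-fold, 3.31-fold and 3.24-fold in the order LPS, LOC1 + LPS and LOC3 + LPS. Psmb9 was at 2.76-fold, 3.52-fold and 3.60-fold, and Psmb10 at 2.31-fold, 3.35-fold and 3.27-fold. Of the 14 standard subunits of the 20S core, 0 were listed in any group. The brightest probe of Nlrc5 was not listed, while its other probe was at log2 ratios of 3.27, 3.33 and 3.30, which is 9.63-fold with LPS.

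**Figure D2:**
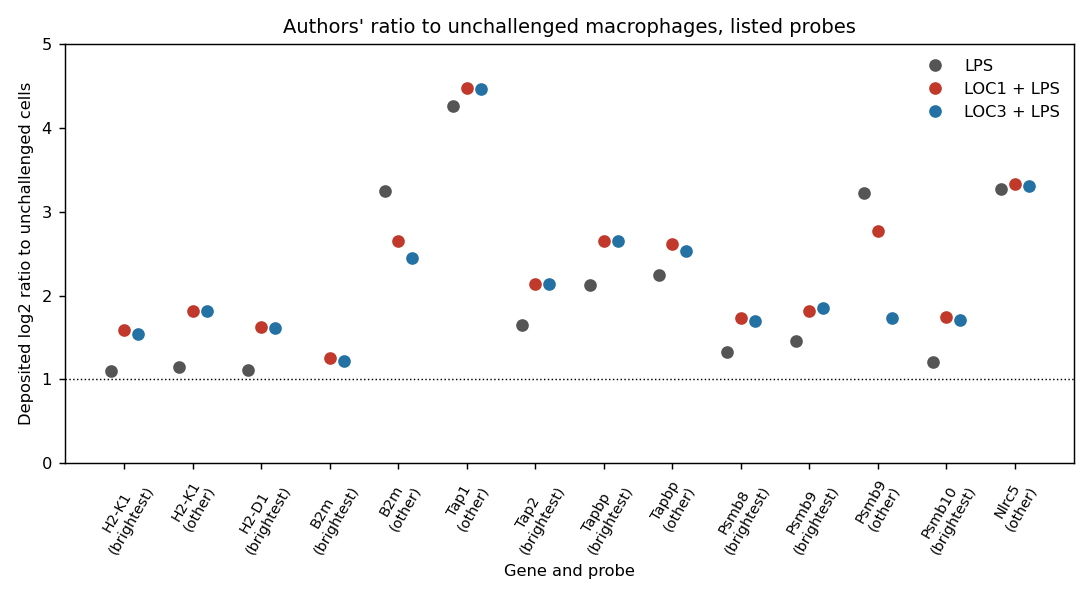
The authors' log2 ratio to unchallenged macrophages for each probe of the 10 genes that is listed with LOC1 + LPS, 1 point per group, with the 2-fold limit of the table dotted. The LPS point is the lowest of the 3 except in the other probes of B2m and Psmb9, and the brightest B2m probe has none because it is blank with LPS; the LOC3 + LPS point of the other Psmb9 probe is from a spot not well above background.

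The second question was how the 10 genes stood with a strain before LPS against LPS alone. No group had a strain without LPS. A changed response to LPS and an effect of the bacteria themselves therefore cannot be told apart. With LOC1, all 10 genes were higher than with LPS alone, by a median of 0.41 on the log2 scale (1.33-fold), from 0.24 in Nlrc5 to 0.51 in Psmb10. With LOC3, all 10 were higher by a median of 0.38 (1.30-fold), from 0.24 in B2m to 0.49 in Tapbp. Over all genes tested the median was 0.00 with LOC1 and 0.03 with LOC3. None of the 10 was past 2-fold with either strain, where 2.5% of the 20025 genes tested were past 2-fold higher with LOC1 and 3.03% of 19807 with LOC3. All 10 differences were over 2 technical SD with each strain, as were 27.8% of all genes in the higher direction with LOC1 and 28.2% with LOC3. Only 5 of the 10 were over 2 times the standard error of 0.20 that the error model of the scanner software gives a difference, with each strain. The share of all genes over that limit was not computed, so the count of 5 has no background.

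Spot noise was lower in bright probes, so the genes above the 75th percentile, a limit far under the signals of the 10, were taken as a further background, chosen after the data were seen. Of the genes above the 75th percentile, 42.3% were over 2 technical SD higher with LOC1 and 43.1% with LOC3, and their medians were 0.06 and 0.08. Of the 10 genes, 9 lay above the upper quartile of these bright genes with LOC1 (0.25) and 9 with LOC3 (0.25), and 3 lay above their 90th percentile with each strain (0.47 and 0.45). Of these bright genes 59.6% were higher with LOC1 and 63.6% with LOC3, and of all genes tested 50.1% and 54.0%, beside the 10 of 10 here. Both comparisons use the same LPS array, so they are not independent. With the mean of the detected probes in place of the brightest, 8 of the 10 were higher with each strain, and with arrays scaled to their median, the median of the 10 was 0.63 with LOC1 and 0.56 with LOC3.

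**Figure D3:**
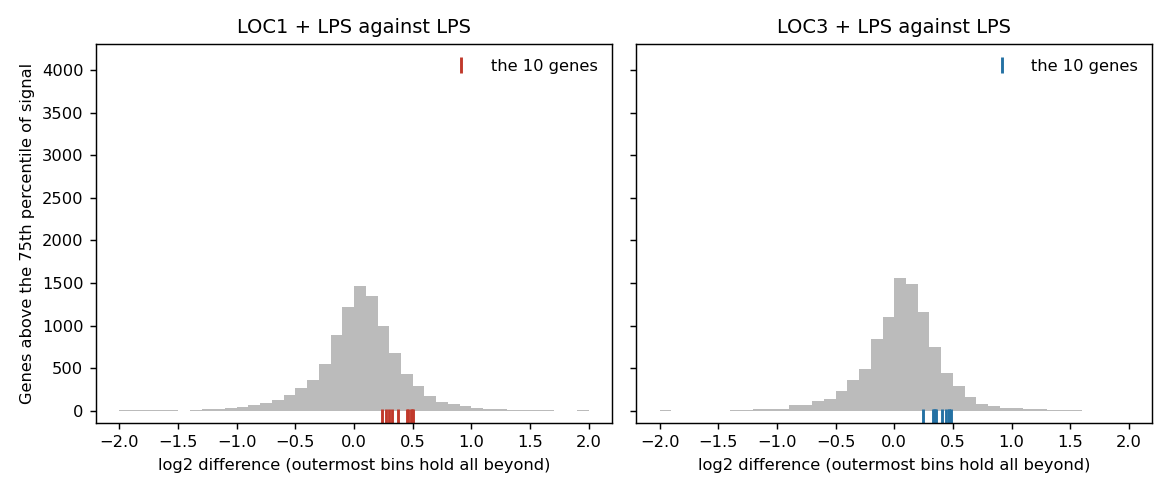
Number of genes above the 75th percentile of signal by their log2 difference from LPS alone, in bins of 0.1, with LOC1 on the left and LOC3 on the right; coloured ticks mark the 10 genes, by their brightest probe. The 10 ticks lie to the right of the peak, from 0.24 to 0.51 with LOC1 and from 0.24 to 0.49 with LOC3.

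The heavy chains, which hold the peptide, gave some of the larger differences. H2-K1 (probe at chr17:34133055-34133114, mm9) read 95783 with LPS, 121890 with LOC1 + LPS and 118298 with LOC3 + LPS, a difference of 0.46 with LOC1 (1.38-fold) and 0.41 with LOC3 (1.33-fold). Its other probe (chr17:34133984-34134043) read 30342, 43577 and 43634, a difference of 0.63 with both strains. Both probes were lowest with LPS alone. H2-D1 (chr17:35403886-35403945) read 71373, 92419 and 91656, a difference of 0.49 with LOC1 (1.40-fold) and 0.46 with LOC3 (1.38-fold). The H2 heavy chains are a family of close copies, so these probes may also take up RNA of other members. The other H2-K1 probe differs from the H2-L probe on the array by 14 edits over its 60 bases. The brightest H2-K1 probe and the H2-D1 probe differ by at least 21 from every other probe. These distances are between probes only. The probes were not compared with the transcripts of other H2 genes, so the distances do not show which RNA a probe takes up.

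B2m, the light chain without which most heavy chains do not reach the surface, was higher with both strains by its brightest probe. That probe at chr2:121978401-121978460 read 129551 with LPS, 144645 with LOC1 + LPS and 142556 with LOC3 + LPS, a difference of 0.27 with LOC1 and 0.24 with LOC3. The other probe carrying its name, 3802 bases away at chr2:121974599-121974658 and designed on a cDNA clone, went the other way. It read 2395, 1426 and 1242, a difference of -0.64 with LOC1 and -0.84 with LOC3, which is 1.55-fold and 1.79-fold lower than with LPS alone. This second probe was also listed at 9.51-fold over unchallenged cells with LPS, 6.26-fold with LOC1 + LPS and 5.44-fold with LOC3 + LPS, where the brightest probe stood near 2-fold. Which transcript it measures was not tested.

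The transport and loading genes were all higher with both strains. Tap1 (chr17:34334022-34334081) read 22210 with LPS, 25216 with LOC1 + LPS and 26431 with LOC3 + LPS, a difference of 0.30 with LOC1 and 0.35 with LOC3. Its other probe (chr17:34330854-34330913) read 3453, 3621 and 3583, a difference of 0.18 with LOC1 and 0.16 with LOC3. The order of the strains thus turned between the 2 Tap1 probes, by less than the spot noise. Tap2, the partner of Tap1 in the transporter, read 20188, 25468 and 25569 (chr17:34353116-34353175), a difference of 0.45 with LOC1 and 0.44 with LOC3. The dim Tap2 probe (chr17:34341478-34341537) read 23.4, 27.6 and 33.7, close to background. Tapbp (chr17:34066022-34066081) read 36173, 47139 and 47193, a difference of 0.49 with each strain, the highest of the 10 with LOC3. Its other probe (chr17:34063096-34063155) read 1367, 1589 and 1506, a difference of 0.33 with LOC1 and 0.24 with LOC3, in the same direction.

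Of the immunoproteasome subunits, Psmb10 had the largest difference of the 10 genes with LOC1. It read 50227 with LPS, 65987 with LOC1 + LPS and 64666 with LOC3 + LPS (chr8:108459677-108459736), a difference of 0.51 with LOC1 (1.42-fold) and 0.47 with LOC3 (1.38-fold). Psmb8 (chr17:34337771-34337830) read 15541, 18587 and 18247, a difference of 0.37 and 0.34. Psmb9 (chr17:34319174-34319233) read 18255, 21089 and 21593, a difference of 0.32 and 0.35. The 3 subunits were thus lowest with LPS alone. The dim other probe of Psmb9 (chr17:34322762-34322821) read 30.6 with LPS, 20.3 with LOC1 + LPS and 9.89 with LOC3 + LPS, the last not well above background, and went the other way, by -0.48 with LOC1. That is within 2 technical SD of dim probes. Its deposited ratio to unchallenged cells of 9.30-fold with LPS implies an unchallenged signal below the lowest signal well above background, so it bounds the ratio at no less than 1.88-fold.

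Each immunoproteasome subunit replaces 1 standard subunit. Psmb8 stood 0.27 above Psmb5, its standard counterpart, with LOC1 and 0.18 above it with LOC3, as a difference of log2 differences. Psmb10 stood above Psmb7 by 0.26 and 0.19. For Psmb9 the order was the other way: Psmb6 was higher by 0.40 with LOC1 and 0.41 with LOC3, and Psmb9 stood -0.08 and -0.07 from it. These sizes carry spot noise of both probes, and no test of them is possible with 1 array.

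Nlrc5, the transactivator of class I genes, was higher with both strains by its brightest probe only. The brightest probe (chr8:97051105-97051164) read 9244 with LPS, 10113 with LOC1 + LPS and 10827 with LOC3 + LPS, a difference of 0.24 with LOC1 and 0.33 with LOC3. Its other probe, spread over 147 bases at chr8:97030478-97030624, read 228, 215 and 212, a difference of 0.03 with LOC1 and -0.00 with LOC3. The difference thus appeared in 1 of its 2 probes, at the size of spot noise in the other. Over the 7 genes with 2 probes, both probes were higher in 5 genes with LOC1 and in 4 with LOC3, and they went opposite ways in B2m and Psmb9 with both strains and in Nlrc5 with LOC3, there by a value at 0.

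**Figure D4:**
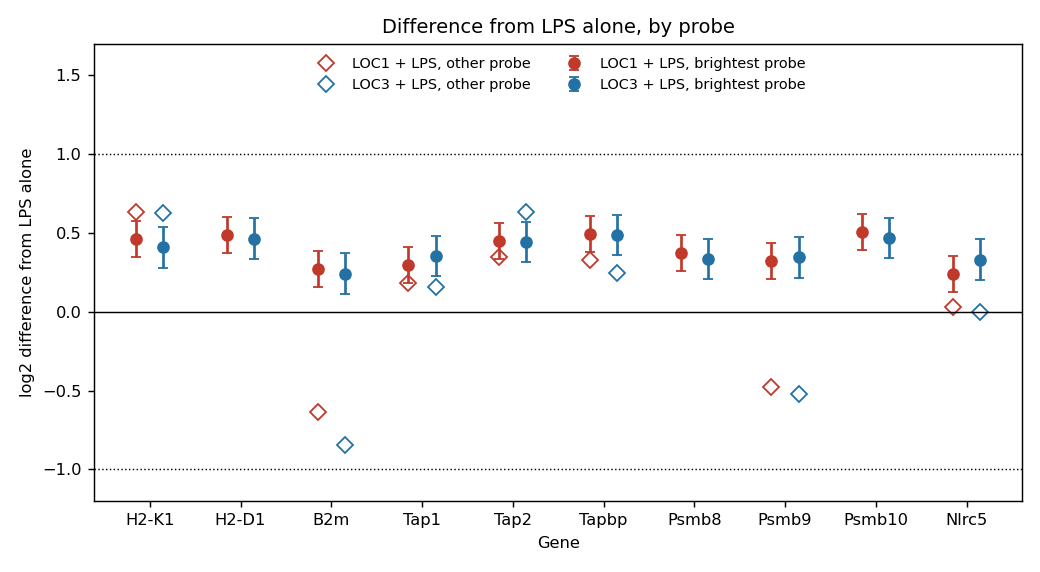
Log2 difference from LPS alone for LOC1 + LPS (red) and LOC3 + LPS (blue) in each of the 10 genes; filled points are the brightest probe with bars of 2 technical SD either way, open diamonds the other probe, and dotted lines mark 2-fold. All 20 filled points lie above 0 and under 2-fold, and the other probes of B2m and Psmb9 lie below 0.

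The strains were then set against each other. With LOC1 against LOC3, 7 of the 10 genes were higher, beside 45.0% of all genes tested. The median of the 10 was 0.01, from -0.09 in Nlrc5 to 0.05 in H2-K1, where the median over all genes was -0.02. None of the 10 was over 2 technical SD in either direction, against 7.19% of all 19395 genes in the higher and 10.6% in the lower direction, and none was past 2-fold, against 2.71% of all genes. Differences as small as 0.13 between the strains would have passed 2 technical SD. That no gene passed does not show that the strains act alike, since the spread between cultures is unknown.

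The rest of the path was followed in 7 lists of genes. The other class I and class I-like heavy chains had the medians nearest to those of the 10 genes: of 28 on the list 26 were on the array, 21 were well above background, and 18 of these were higher with LOC1 and 16 with LOC3. Their median was 0.52 with LOC1 and 0.47 with LOC3, where the median over all genes was 0.00 and 0.03. H2-M2 had the largest difference with LOC1, 0.73, and 0.58 with LOC3, and H2-T22 followed at 0.70 with each. H2-T23, which presents leader peptides of other class I chains to NK cell receptors, read 57765 with LPS, 84708 with LOC1 + LPS and 83230 with LOC3 + LPS. The lowest with LOC1 were the CD1 chain Cd1d2, at -0.35 with LOC1 and -0.25 with LOC3, and H2-T3 at -0.06 and -0.13. The 5 chains not above background on any array were H2-Q1, H2-M1, H2-M5, H2-M9 and H2-M10.1. Members of this family are close in sequence, so these differences are not independent of H2-K1 and H2-D1.

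The chaperones and trimming enzymes of the endoplasmic reticulum had no such shift, with a median over 11 genes of -0.08 with LOC1 and -0.00 with LOC3. Tapbpl, a relative of tapasin that edits the peptides bound, was the exception, at 0.55 and 0.47, and it was listed above unchallenged cells in all 3 groups. The lectin chaperone Calr read 14051 with LPS, 8410 with LOC1 + LPS and 11352 with LOC3 + LPS, a difference of -0.63 and -0.20, and the glycoprotein folding sensor Uggt1 lay at -0.43 and -0.28. Calr and Uggt1 also serve folding of glycoproteins in general.

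Among the proteasome genes outside the 10, the activator list had a median of 0.27 with LOC1 and 0.28 with LOC3 over the 4 of its 5 genes on the array. Psme3, the nuclear activator subunit, stood highest at 0.69 and 0.68, and Psme1, an interferon-induced activator subunit, at 0.24 and 0.21. The 14 standard 20S subunits had a median of 0.19 and 0.24, from -0.11 in Psma6 to 0.40 in Psmb6 with LOC1, and 13 of them were higher with LOC1 and 12 with LOC3. The 7 cytosolic peptidases, which trim or destroy peptides after the proteasome, had a median of 0.11 and 0.13, with Npepps at 0.33 with each strain and Ide at -0.32 and -0.14.

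The 14 regulators of class I genes moved in both directions. Of the 13 above background, 8 were higher and 5 lower with each strain, with a median of 0.08 with LOC1 and 0.13 with LOC3. Irf1, an interferon-induced factor of the ISRE, read 40862 with LPS, 51359 with LOC1 + LPS and 48896 with LOC3 + LPS, a difference of 0.44 and 0.36. Rela, the NF-kB subunit, stood at 0.44 and 0.40. Irf8 was lower, by -0.68 with LOC1 and -0.39 with LOC3, as was the Y box subunit Nfyb, by -0.56 and -0.63. Ciita, the transactivator of class II genes, was not well above background on any array.

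The MHC class II genes present peptides to CD4 T cells. Of 9, 6 were above background on at least 1 array, all lower with LOC1 and 4 lower with LOC3. The medians of these 6 were -0.50 and -0.25, but only 2 were over 2 technical SD lower with LOC1 and 1 with LOC3. The share of all genes over 2 technical SD lower is not given here, so these counts have no background. H2-DMb1 was the only gene of these 7 lists past 2-fold, at -1.30 with LOC1 and -0.35 with LOC3, from intensities of 52.4, 19.8 and 38.4 that lie near background, where 3.86% of all genes were past 2-fold lower with LOC1. H2-DMa read 174, 86.3 and 103, a difference of -0.90 and -0.65. Cd74, the invariant chain, read 32238, 28773 and 32628, at -0.05 and 0.12. Of the 8 macrophage markers, 6 were lower with LOC1 and 5 with LOC3, with medians of -0.17 and -0.06. By over 2 technical SD, 4 and 3 of the markers were lower, again without a share of all genes beside them. The 8 markers ran from Csf1r at -0.89 and -0.70 to Adgre1 at 0.57 and 0.38, and their part in the differences of the 10 genes was not tested.

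**Figure D5:**
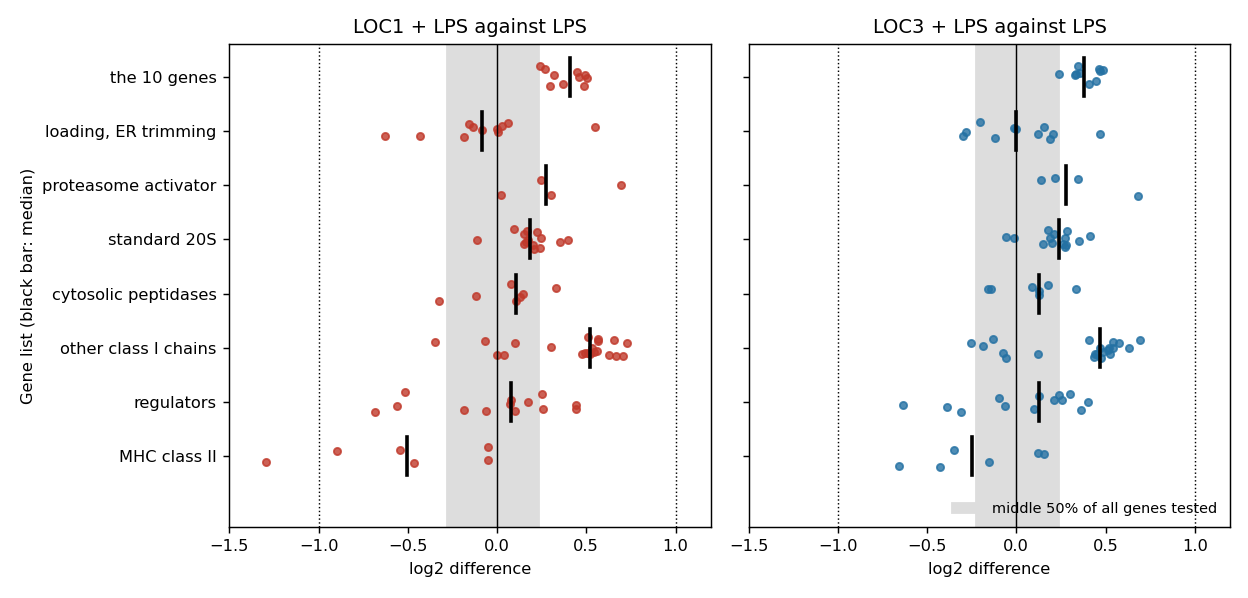
Log2 difference from LPS alone of each gene well above background, by list, with LOC1 on the left and LOC3 on the right; black bars are list medians, the grey band the range from the lower to the upper quartile of all genes tested, and dotted lines 2-fold. The 10 genes and the other class I chains have medians of 0.41 and 0.52 with LOC1, and the class II genes have the lowest median, -0.50.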

How the data were processed

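RNA of RAW264.7 macrophages was measured on 1 Agilent 1-colour array per group. Spot intensity was deposited by the authors as background-subtracted in Feature Extraction (12.0.3.1 per the file headers; the methods name another version). The log2 ratios to unchallenged cells were deposited by the authors, with only values of at least 2-fold listed. The methods name GeneSpring for normalization and limma for statistics, while the submitters' processing notes name limma and R.

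Outlier spots were left out, each array's 75th percentile was subtracted on the log2 scale, and signals not well above background were raised to the lowest signal that was. Genes were compared where either array had them well above background, by their brightest probe, with 2-fold as the threshold. The 10 genes, the lists and the motifs were chosen with earlier results of these data known. Named list genes were drawn from those past 2-fold and the 2 highest and 2 lowest LOC1 differences of each list, not all of which are given. Psmb7 was named as the counterpart of Psmb10, and H2-T23, Psme1, Cd74, Adgre1, Cd68, Lyz2, Cd3e, Krt18, H2-DMa, Csf1r, Ciita and the undetected H2 genes were chosen after their values were seen. Alternatives concerned scaling, background correction, filters, probes, outlier spots and the deposited ratios. The code was tested on simulated data. The number of arrays limits the precision. Python 3.11.15, numpy 2.4.6, pandas 2.3.3, matplotlib 3.10.9, R 4.3.3 and limma 3.58.1 (normexp, offset 50) were used. Probe positions are mm9, promoters RefSeq GRCm38.p6.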

Additional observations from a re-analysis of the deposited data

How the results depend on the processing

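With 1 array per group, no paired analysis was possible because the groups share no replicates, and no array could be left out. None of the 10 genes was past 2-fold under any setting, and all 10 were higher with each strain under every setting except the mean of the detected probes, which left 8 of 10 higher, with B2m and Psmb9 lower. The deposited ratios gave a value for 7 of the 10. The median over those 7 was 0.49 with LOC1 and 0.48 with LOC3. It leaves out B2m, Tap1 and Nlrc5, so it cannot be set against the median of the 10. The median of the 10 genes moved with scaling: median scaling gave 0.63 with LOC1 and 0.56 with LOC3, and quantile normalization 0.35 and 0.26. Median scaling also raised the median of all genes by 0.22 and 0.18, a constant for every gene. The median of the 10 less that of all genes, 0.41 and 0.35, was 0.33 and 0.23 with quantile normalization and 0.45 and 0.20 with no filter and no floor.

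How many genes were past 2-fold (1274 with LOC1, 1239 with LOC3 and 525 between the strains) depended on the filter and background. Normexp gave 424, 414 and 154, a signal well above background on both arrays 849, 714 and 107, no filter and no floor 3869, 3824 and 2841, the deposited ratios 590, 564 and 319, and a 3-fold threshold 418, 412 and 292. The split of higher against lower turned with median scaling, from 501 against 773 to 888 against 481 with LOC1, and from 601 against 638 to 879 against 401 with LOC3. Quantile normalization gave 631 against 619 with LOC1 and 716 against 518 with LOC3, and normexp 214 against 210 with LOC1 and 254 against 160 with LOC3. The 75th percentile over probes was added after seeing the data, turned the LOC3 split to 645 against 586 and left all 10 genes higher with each strain. Signals near background, such as the dim probes of Tap2 and Psmb9, limit what can be read from them.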
